A study of Mus musculus with 8 samples.

Results

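The 10 genes described here are named as markers and working parts of fat cells. They are the adipokine genes Adipoq, Lep, Retn and Cfd, the lipid droplet coat genes Plin1, Plin4 and Cidec, the lipase genes Lipe and Pnpla2, and the fatty acid carrier gene Fabp4. They were matched by symbol in a table of 29621 genes, and all 10 were found in it. None of the 10 was called different between the genotypes. Their levels instead followed single libraries, and 1 library of each genotype was the highest of its group for all 10 genes.

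Total RNA of the whole pancreas was depleted of ribosomal RNA and sequenced, in 4 KPC and 4 KPC-OG libraries, from mice of the C57BL/6 strain aged 6 weeks (postnatal day 42). Both groups carried p48-Cre, a Cre-activated oncogene allele and Trp53 fl/fl, the usual combination for mouse pancreatic cancer. KPC-OG mice had R26tm1(LSL-OG) as well, an allele at R26 that the series title ties to an antigenic model. The p48-Cre driver acts in the epithelial lineage of the pancreas, so the alleles are meant to be switched on there and not in fat cells. The pancreas was taken after perfusion and flash frozen whole, so any fat attached to or lying within the organ would enter the RNA. The labels do not say that each library is a different mouse, and p-values then measure the spread between these libraries only.

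White fat cells store triglyceride in one large droplet. Perilipins and the CIDE protein made by Cidec cover the droplet and help it to grow, and lipases release its fatty acids between meals. Fat cells also secrete hormones and a complement enzyme, which serve as blood and tissue markers of fat. The mouse pancreas lies in fatty mesentery, and fat cells can also lie between its lobules.

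All 10 genes lie on autosomes, and the coordinates below are those of GRCm38 in the GENCODE M21 annotation. The RefSeq table of promoters, on build GRCm38.p6, held 11 promoters of 9 of the genes, and Fabp4 had no entry. The 250 bases before the RefSeq start site are shown for 4 genes whose library pattern is described below, so that their letters can be set beside it. Capitals mark matches to CCAAT, to TTGCNNAA (the core of the palindrome that C/EBP factors bind) and to TATAA, searched on both strands. Each sequence is written 5' to 3' on the gene's own strand. Adipoq is at chr16:23146286-23146535 on the + strand, Plin1 at chr7:79732777-79733026 on the - strand, Cfd at chr10:79890603-79890852 on the + strand and Lep at chr6:29059971-29060220 on the + strand.
Adipoq: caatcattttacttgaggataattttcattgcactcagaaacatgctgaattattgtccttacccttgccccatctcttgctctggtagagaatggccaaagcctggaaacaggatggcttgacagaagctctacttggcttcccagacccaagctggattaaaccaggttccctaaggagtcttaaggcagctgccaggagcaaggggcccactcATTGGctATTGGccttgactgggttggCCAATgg
Plin1: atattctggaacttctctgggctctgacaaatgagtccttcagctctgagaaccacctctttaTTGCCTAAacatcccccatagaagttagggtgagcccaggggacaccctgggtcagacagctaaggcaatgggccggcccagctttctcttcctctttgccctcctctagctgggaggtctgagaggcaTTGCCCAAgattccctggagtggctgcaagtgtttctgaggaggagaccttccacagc
Cfd: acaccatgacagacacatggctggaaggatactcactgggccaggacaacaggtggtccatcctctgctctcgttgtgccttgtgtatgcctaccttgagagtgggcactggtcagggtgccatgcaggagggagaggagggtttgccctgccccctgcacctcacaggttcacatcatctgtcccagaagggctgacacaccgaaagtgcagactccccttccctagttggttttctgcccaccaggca
Lep: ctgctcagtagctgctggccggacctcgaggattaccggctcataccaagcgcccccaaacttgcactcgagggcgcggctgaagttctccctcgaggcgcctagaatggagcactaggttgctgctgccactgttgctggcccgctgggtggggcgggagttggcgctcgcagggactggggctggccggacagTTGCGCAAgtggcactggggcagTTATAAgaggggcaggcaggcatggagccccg
Adipoq held 3 CCAAT matches, at -34 to -30, -27 to -23 and -7 to -3 counted back from the start site. Plin1 held 2 matches to TTGCNNAA, at -187 to -180 and at -58 to -51. Its RefSeq start site lies within the GENCODE gene, which reaches to 79732903, so the match at -58 to -51 falls inside that gene. Lep held the fully palindromic match TTGCGCAA at -55 to -48, and TATAA matches on both strands that overlap between -32 and -27. The Cfd window held no match to any of the motifs. Among 32851 promoters of this length in the table, 33.8% held CCAAT, 9.56% held TTGCNNAA and 22.8% held TATAA, against 2, 3 and 2 of the 11 promoters of these genes. The letters AGGTCA, bound by nuclear receptors, were in 14.0% of all promoters and in 0 of the 11. The direct repeat of AGGTCA with 1 base between its copies, bound by PPAR factors, was in 0.0335% of all promoters and in 0 of the 11. A match describes letters only.

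The 4 KPC libraries each held between 7373286 and 11292570 estimated reads, and the 4 KPC-OG libraries between 13671606 and 18292115. A single gene, Lars2, took 20.8% to 29.95% of KPC reads and 3.73% to 7.11% of KPC-OG reads. Levels below are therefore given as CPM after TMM scaling (TMM-scaled CPM, a library's counts for a gene over its effective depth), a method that sets libraries to the same level for the bulk of genes. TMM factors were 0.483 to 0.653 in KPC. They were 1.83 to 2.28 in KPC-OG 1, 2 and 4, and 1.14 in KPC-OG 3, which stands apart from its group. As a check of the tissue, 8 acinar markers of the pancreas together held 214494 to 394835 TMM-scaled CPM in KPC. They held 71033, 46345, 109690 and 38270 in KPC-OG 1 to 4, so KPC-OG 3 was the highest of its group here too. Pnlip (pancreatic lipase) was the most extreme of the 8, at 16353 in KPC-OG 3 against 345 to 517 in the others. Ctrb1 (a chymotrypsinogen) alone of the 8 was not highest there, at 23818 against 38395 in KPC-OG 1 and 24771 in KPC-OG 2. The part of this in the results below was not tested. In bulk samples, fewer cells of a type and less RNA per cell cannot be told apart.

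Of the 10 genes, 9 passed the filter on low counts, and Lep did not. Of these, 0 were called higher and 0 lower by edgeR's quasi-likelihood test at an adjusted p of 0.05, over 14267 genes of which the test put 17.4% higher and 16.6% lower in KPC-OG. None of the 9 reached an unadjusted p of 0.05 either, and DESeq2 and limma-voom called 0. In 0 of the 9 genes did the groups fail to overlap, whereas 17.6% of tested genes had every KPC-OG library above every KPC library and 17.0% every one below. The log2 fold changes of KPC-OG over KPC were above 0 in all 9 genes, with a median of 0.59 against 0.09 over all genes tested. That common sign depended on 1 library and on the fit. Without KPC-OG 3 all 9 values were below 0, with a median of -1.24. With all 8 libraries kept, all 9 were below 0 with limma-voom too (median -0.30) and with the replicate number as a block (median -0.29).

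Adipoq (ENSMUSG00000022878, chr16:23146536-23158028, + strand) encodes adiponectin, the hormone most closely tied to fat cells. Its level was 1.91, 15.2, 0 and 5.57 TMM-scaled CPM in KPC 1 to 4, and 0.487, 1.30, 29.8 and 5.36 in KPC-OG 1 to 4. KPC 2 and KPC-OG 3 were high, KPC 3 held no read, and the groups overlapped in part. No read in KPC 3 allows a level of up to 0.796 TMM-scaled CPM there (3 counts, counting error only). The log2 fold change was 0.61 ± 1.36 (SE, n = 4 and 4, edgeR adjusted p = 0.763). Of the gene's reads, 79.0% fell to its transcript of 1292 bases.

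Cfd (ENSMUSG00000061780, chr10:79890853-79892655, + strand) encodes complement factor D, or adipsin, a serine protease of the alternative pathway that mouse fat makes in large amounts. Its level was 13.0, 89.2, 1.59 and 21.6 TMM-scaled CPM in KPC 1 to 4, and 3.26, 5.42, 169 and 24.3 in KPC-OG 1 to 4. The lowest value of all 8 was in KPC 3 and the highest in KPC-OG 3. The log2 fold change was 0.66 ± 1.38 (SE, n = 4 and 4, edgeR adjusted p = 0.748).

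Retn (ENSMUSG00000012705, chr8:3655770-3660110, + strand) encodes resistin, a hormone that in mice comes mainly from fat. It stood at 1.15, 7.32, 0.796 and 2.20 TMM-scaled CPM in KPC 1 to 4, and at 0.335, 1.04, 14.6 and 2.32 in KPC-OG 1 to 4. The order of the libraries within each group was that of Cfd. Its log2 fold change was 0.58 ± 1.19 (SE, n = 4 and 4, edgeR adjusted p = 0.742).

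Lep (ENSMUSG00000059201, chr6:29060220-29073877, + strand) encodes leptin, the satiety hormone of fat. It had reads in 3 libraries only: 7 in KPC 2, 43 in KPC-OG 3 and 24 in KPC-OG 4. These are 1.31, 2.82 and 0.714 TMM-scaled CPM, and the other 5 libraries held 0. The 3 libraries with leptin reads were the highest of KPC and the highest and next of KPC-OG for the rest of the genes. An exact two-sided permutation test of the level gave p = 0.714 over 70 arrangements, the smallest possible being 0.0286. All the reads fell to its transcript of 3259 bases.

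**Figure D1:**
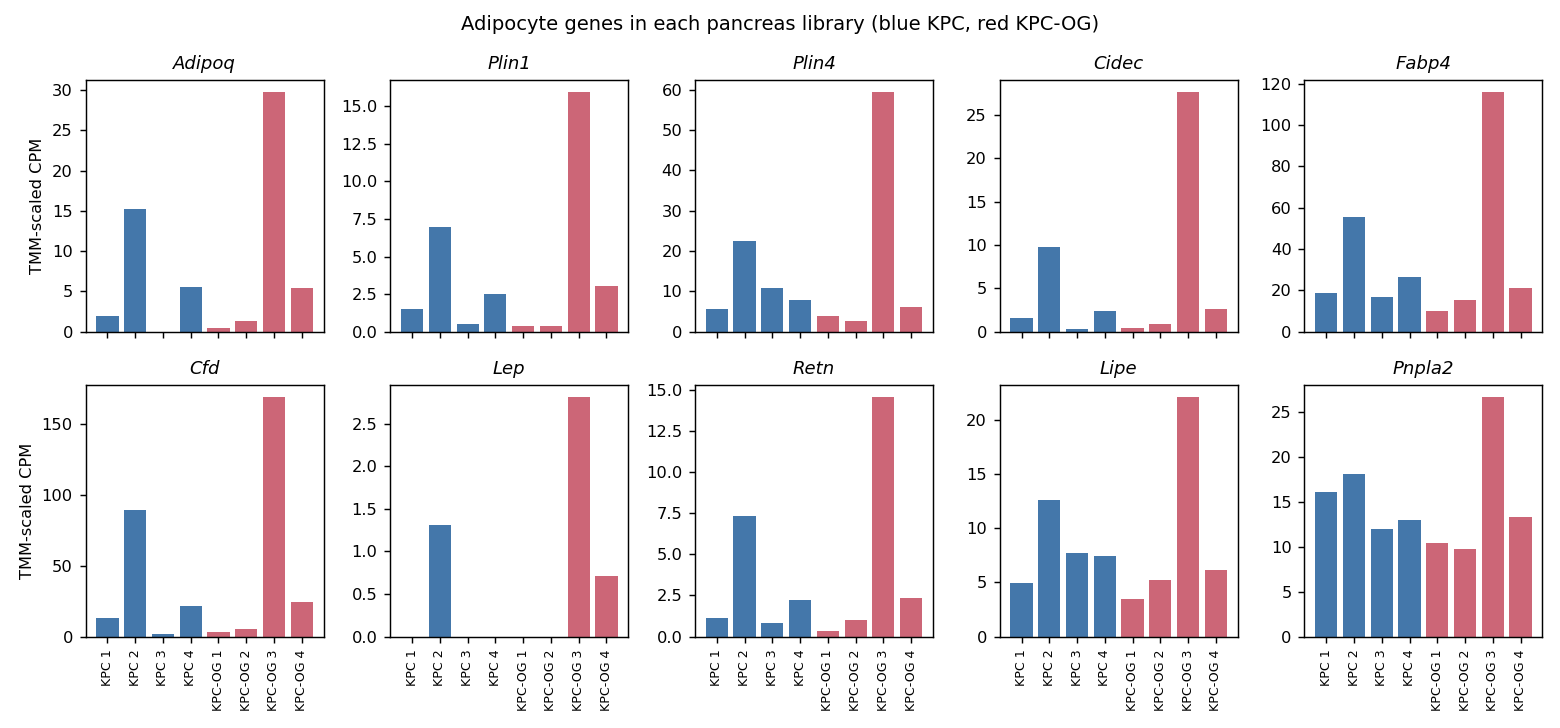
Bars give the TMM-scaled CPM (y axis, a scale of its own for each gene, from 0) of the 10 adipocyte genes in the 8 libraries (x axis), blue for KPC and red for KPC-OG. KPC-OG 3 is the tallest bar in every panel, from 2.82 for Lep to 169 for Cfd, and KPC 2 is the tallest blue bar.

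Plin1 (ENSMUSG00000030546, chr7:79720218-79732903, - strand) encodes perilipin 1, the droplet coat protein that controls the access of lipases. It stood at 1.53, 6.95, 0.531 and 2.53 TMM-scaled CPM in KPC 1 to 4, and at 0.396, 0.389, 16.0 and 3.01 in KPC-OG 1 to 4. On this scale KPC-OG 1 and 2 were lower than every KPC library, but the 0.531 of KPC 3 rests on 2 reads. By share of reads KPC-OG 1 and 2 held 0.721 and 0.860 ppm, above the 0.283 of KPC 3. KPC-OG 3 was above all KPC libraries on both scales. The log2 fold change was 0.68 ± 1.28 (SE, n = 4 and 4, edgeR adjusted p = 0.720).

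Cidec (ENSMUSG00000030278, chr6:113424634-113435760, - strand) encodes the CIDE protein that passes lipid from small droplets to large ones. It stood at 1.53, 9.77, 0.265 and 2.36 TMM-scaled CPM in KPC 1 to 4, and at 0.426, 0.881, 27.7 and 2.65 in KPC-OG 1 to 4. The 0.265 of KPC 3 is a single read. Its log2 fold change, 1.09 ± 1.43 (SE, n = 4 and 4, edgeR adjusted p = 0.598), was the largest of the 9 in size. By share of reads KPC-OG 3 exceeded the mean of the other KPC-OG libraries 10.8 times, also the largest such ratio of the 10 genes.

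Plin4 (ENSMUSG00000002831, chr17:56100591-56109803, - strand) encodes perilipin 4, a long coat protein of fat cells that skeletal and heart muscle make too. It stood at 5.54, 22.5, 10.9 and 7.77 TMM-scaled CPM in KPC 1 to 4, and at 3.96, 2.72, 59.5 and 6.19 in KPC-OG 1 to 4. KPC 3, the lowest KPC library for Cfd, Cidec, Plin1 and Adipoq, was the next after KPC 2 here. The log2 fold change was 0.59 ± 1.07 (SE, n = 4 and 4, edgeR adjusted p = 0.705). Without KPC-OG 3 it fell to -1.44, the member nearest to a call in that setting (edgeR adjusted p = 0.0557).

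Fabp4 (ENSMUSG00000062515, chr3:10204088-10208576, - strand) encodes the fatty acid binding protein of fat cells, which macrophages and capillary endothelium also make. It stood at 18.7, 55.4, 17.0 and 26.3 TMM-scaled CPM in KPC 1 to 4, and at 10.1, 15.1, 116 and 20.9 in KPC-OG 1 to 4. The libraries fell in the same order as for Cfd, over a narrower range. Its log2 fold change was 0.44 ± 0.83 (SE, n = 4 and 4, edgeR adjusted p = 0.715).

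Lipe (ENSMUSG00000003123, chr7:25379527-25398710, - strand) encodes hormone-sensitive lipase, which cleaves diglyceride and which steroid-making tissue and islets also use. It stood at 4.97, 12.6, 7.70 and 7.43 TMM-scaled CPM in KPC 1 to 4, and at 3.501, 5.26, 22.1 and 6.16 in KPC-OG 1 to 4. KPC-OG 3 was again above every other library, while the remaining KPC-OG libraries lay within or just below the KPC range. The log2 fold change was 0.15 ± 0.60 (SE, n = 4 and 4, edgeR adjusted p = 0.872). The transcript of 2656 bases took 66.2% of its reads and that of 3221 bases took 29.9%.

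Pnpla2 (ENSMUSG00000025509, chr7:141455198-141460743, + strand) encodes adipose triglyceride lipase, which starts the breakdown of stored fat in most tissues. It stood at 16.0, 18.03, 11.9 and 13.0 TMM-scaled CPM in KPC 1 to 4, and at 10.4, 9.72, 26.7 and 13.3 in KPC-OG 1 to 4. Its libraries differed least of the 10 genes, with a coefficient of variation (SD over mean) of 18.9% in KPC and 52.6% in KPC-OG. The log2 fold change was 0.01 ± 0.32 (SE, n = 4 and 4, edgeR adjusted p = 0.988). Of its reads, 38.2% fell to a coding transcript of 1799 bases and 35.9% to one of 2048 bases, annotated as a target of nonsense-mediated decay.

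**Figure D2:**
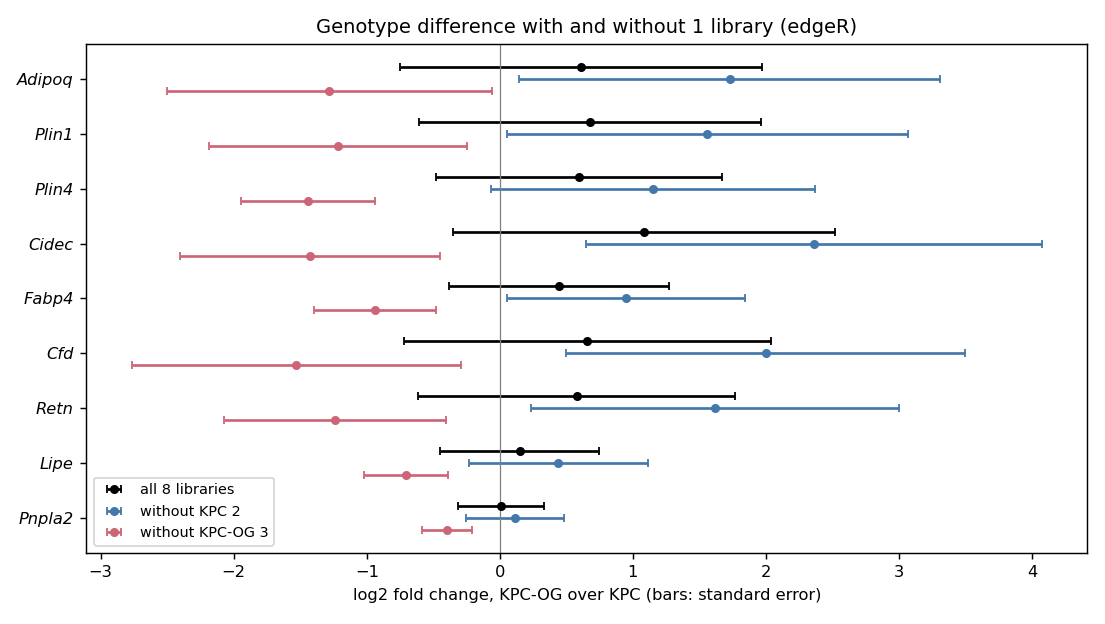
Points give the edgeR log2 fold change of KPC-OG over KPC (x axis) for the 9 tested genes (y axis) and bars its standard error, with all 8 libraries (black), without KPC 2 (blue) and without KPC-OG 3 (red). All 9 red points lie below 0, from -1.53 for Cfd to -0.40 for Pnpla2, and all 9 blue points above 0, up to 2.36 for Cidec.

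The direction of the genotype difference turned with the library left out, as it did with the method and the block. Without KPC-OG 3 the log2 fold changes ran from -1.53 for Cfd to -0.40 for Pnpla2, with 0 of 9 called and 2 at an unadjusted p under 0.05. Without KPC 2 they ran from 0.11 for Pnpla2 to 2.36 for Cidec, with a median of 1.56 and 0 of 9 called. Without both KPC-OG 2 and KPC-OG 3, the 9 values were again all below 0, with a median of -0.98 and 0 called.

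The library pattern was shared by the genes. All 10 were highest in KPC 2 among the KPC libraries, and all 10 were highest in KPC-OG 3 and next highest in KPC-OG 4 among the KPC-OG libraries. The full KPC order of KPC 2, 4, 1 and 3 was held by 6 genes (Adipoq, Plin1, Cidec, Fabp4, Cfd and Retn). The full KPC-OG order of KPC-OG 3, 4, 2 and 1 was held by 6 (Adipoq, Cidec, Fabp4, Cfd, Retn and Lipe). Among all tested genes, 23.0% were highest in KPC 2 within KPC, 34.2% in KPC-OG 3 within KPC-OG and 7.02% in both, against 9 of the 9 tested genes here. By plain share of reads, where no scaling factor enters, 49.0% of tested genes were highest in KPC 2, 2.86% in KPC-OG 3 and 0.897% in both, again against 9 of 9.

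The sum of the 10 genes was 64.4, 238, 50.7 and 88.8 TMM-scaled CPM in KPC 1 to 4, and 32.9, 41.8, 484 and 85.0 in KPC-OG 1 to 4. As a share of reads the sum was 31.1, 156, 27.0 and 49.99 ppm in KPC, and 59.9, 92.4, 552 and 193 in KPC-OG. KPC-OG 3 was the highest library on both scales, and KPC-OG 1 and 2 changed from the lowest of the 8 to above KPC 1, 3 and 4. The TMM factor of KPC-OG 3 was the lowest of its group and raises all its levels against KPC-OG 1, 2 and 4. For Cfd, KPC-OG 3 was 15.4 times the mean of the other KPC-OG libraries in TMM-scaled CPM, 7.91 times in share of reads and 7.79 times in TPM, the authors' length-scaled abundance.

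**Figure D3:**
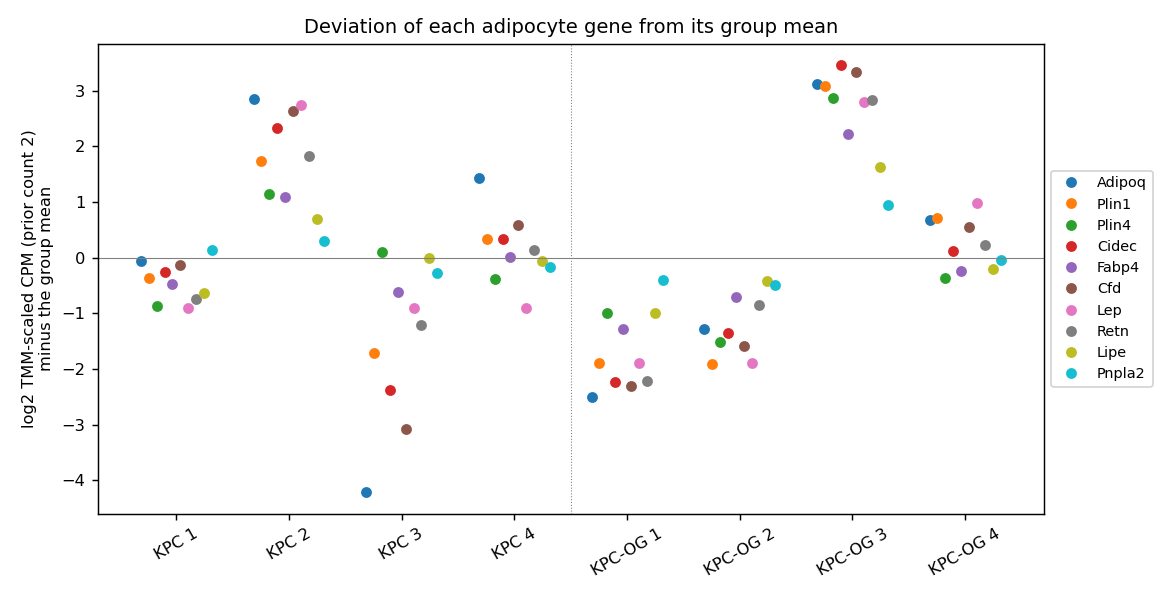
Points give, for each of the 10 genes, the log2 TMM-scaled CPM (prior count of 2) minus the mean of its group (y axis) in each of the 8 libraries (x axis). All 10 points of KPC 2 and all 10 of KPC-OG 3 lie above 0, and Adipoq in KPC 3, with no read, is the lowest point.

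The spread of these genes was wide for this table. Within KPC-OG the coefficient of variation ran from 52.6% for Pnpla2 to 167% for Cidec, against a median of 16.1% over all tested genes. The 9 tested genes lay at the 94.7th percentile (Pnpla2) or above of that spread, and Cidec at the 99.9th. Within KPC the median of all tested genes was 23.4%, and the genes ran from the 37.9th percentile for Pnpla2 to the 98.3rd for Cfd. The part that sampling of low counts plays in these percentiles was not tested.

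Levels can be set against each other between genes only per unit of transcript length, as TPM summed over a gene's transcripts. By the mean over the 8 libraries, Fabp4 was the highest at 82.3 ± 87.5 TPM (SD, n = 8), then Cfd at 64.3 ± 95.3 and Pnpla2 at 15.1 ± 8.56. Adipoq followed at 10.99 ± 14.6, Retn at 6.25 ± 8.41 and Cidec at 5.11 ± 8.62. Lipe stood at 4.597 ± 3.60, Plin4 at 3.63 ± 5.01, Plin1 at 3.07 ± 4.40 and Lep at 0.296 ± 0.485. For each pair of neighbours in this order the gap between the means was smaller than the higher gene's SD. Fabp4 was above Cfd in 7 of the 8 libraries, Cfd above Pnpla2 in 5, Cidec above Lipe in 2 and Plin1 above Lep in 8.

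The range of levels differed between the genes. Over the 8 libraries the highest TPM was 209 times the lowest for Cidec, 194 times for Cfd, 62.4 times for Plin1 and 33.2 times for Retn. The range was 24.3-fold for Plin4, 14.1-fold for Fabp4, 10.8-fold for Lipe and 3.99-fold for Pnpla2. The widest ranges rest on KPC 3, which held 1 read of Cidec, 6 of Cfd, 2 of Plin1 and 3 of Retn. Without KPC 3, a comparison added after seeing the data, the range was 31.5-fold for Cidec, 32.6-fold for Cfd, 25.4-fold for Plin1 and 30.3-fold for Retn, and the same for the other 4 genes. Adipoq and Lep have libraries at 0, so no ratio over all 8 was formed. The ratio of Cidec to Cfd within a library, which needs no scaling between libraries, stayed between 0.0576 and 0.0941. The ratio of Fabp4 to Cfd was 2.10, 0.909, 15.5 and 1.78 in KPC 1 to 4, and 4.55, 4.07, 1.01 and 1.26 in KPC-OG 1 to 4. It was near 1 in KPC 2 and KPC-OG 3, where Cfd was highest, and largest in KPC 3, where Cfd was lowest. The ratio of Pnpla2 to Cfd was 0.739, 0.123, 5.38 and 0.380 in KPC, and 1.70, 1.03, 0.0997 and 0.321 in KPC-OG.

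**Figure D4:**
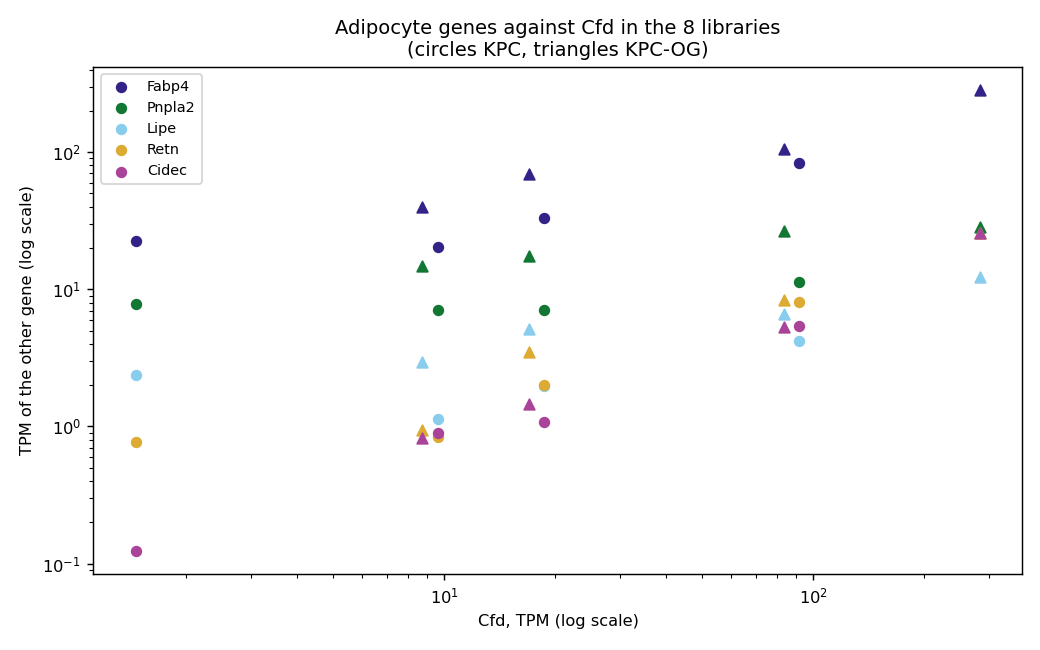
Each point is 1 library, with the TPM of Cfd (x axis, log scale) against the TPM of Fabp4, Pnpla2, Lipe, Retn or Cidec (y axis, log scale), circles for KPC and triangles for KPC-OG. Cidec covers a 209-fold range beside the 194-fold range of Cfd (31.5-fold and 32.6-fold without KPC 3, the leftmost points), and Pnpla2 a 3.99-fold range.

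Calls of the lipases and the carrier depended on the scaling. With library sizes alone, 13078 of 14267 genes (91.7%) were called higher in KPC-OG and the median log2 fold change of all genes rose by 1.74. In that fit 3 of the 9 genes were called higher, Fabp4 at 1.75 (edgeR adjusted p = 0.0432), Lipe at 1.60 (edgeR adjusted p = 0.00336) and Pnpla2 at 1.61 (edgeR adjusted p = 1.14e-04). Each lies below the median of all genes in the same fit, 1.82. With limma on log2(TPM + 1), 90.1% of genes were called higher, and with log2(TPM + 0.1) 89.8%, with Lipe and Pnpla2 called among the 9 in each. Pnpla2 was the 1 gene of the 9 whose groups did not overlap by share of reads, 6.37 to 11.8 ppm in KPC and 19.0 to 30.3 in KPC-OG, as 85.9% of tested genes did.

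The genes with the library pattern most like that of the mean of Adipoq, Plin1, Plin4, Cidec and Cfd were sought among 12735 tested protein-coding genes. Likeness was Pearson's r of log2 TMM-scaled CPM over the 8 libraries after subtracting group means, given as a description, since the points share depth and scaling. The 8 highest were Car3 (0.99), Acaca (0.99), Fasn (0.98), Mmd (0.98), Scd1 (0.98), Herc4 (0.96), Trarg1 (0.96) and Dgat2 (0.95). Car3, a carbonic anhydrase abundant in white fat, stood at 8.79, 70.8, 1.59 and 19.1 TMM-scaled CPM in KPC 1 to 4, and at 4.35, 6.97, 149 and 21.02 in KPC-OG 1 to 4. Scd1, the desaturase of fatty acid synthesis, stood at 58.2, 211, 26.8 and 81.0 in KPC, and at 15.2, 33.5, 529 and 67.6 in KPC-OG. Fasn, fatty acid synthase, reached 220 in KPC 2 and 314 in KPC-OG 3, with lows of 68.5 and 57.1, and was highest in KPC 2 and KPC-OG 3.

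Genes that make or handle fat around these 10 were counted by role. Of 11 regulators of fat cell formation, 4 were called higher and 0 lower, with a median log2 fold change of -0.09 beside 0.09 over all genes. Pparg, the master regulator of fat cells, rose by 1.17 ± 0.24 (edgeR adjusted p = 0.00533), from 2.91 TMM-scaled CPM in KPC to 6.42 in KPC-OG, with no overlap. Its level in KPC-OG 3, 5.96, lay within the 5.54 to 7.46 of that group. Cebpa, its partner factor in fat cells, was not called, at -0.09 ± 0.20 (edgeR adjusted p = 0.773). Cebpb rose by 1.08, Cebpd by 0.78 and Zfp423 by 1.32. Cebpd lost its call with limma-voom and without KPC replicate 1 or 4 or KPC-OG replicate 1 or 2 (largest adjusted p 0.0606). Zfp423 did so with limma-voom and without KPC replicate 1 or 4 or KPC-OG replicate 2 or 4 (largest adjusted p 0.101).

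Of 13 lipid synthesis enzymes 1 was called higher, Me1 (malic enzyme) at 1.85 ± 0.31, and 1 lower, Gpam (the acyltransferase that starts triglyceride synthesis) at -1.14 ± 0.22, with a median of 0.33. Of 10 uptake genes 1 was called higher, Angptl4 (an inhibitor of lipoprotein lipase) at 1.59 ± 0.49, and 1 lower, Vldlr (a lipoprotein receptor) at -1.60 ± 0.22, with a median of -0.06. Angptl4 lost its call with limma-voom, with the replicate block, without both KPC-OG 2 and 3, and without KPC replicate 1, 3 or 4 or KPC-OG replicate 1, 2 or 3 (largest adjusted p 0.164). Of 10 tested genes that control lipolysis, 0 were called higher and 4 lower, with a median of -0.37. These were Adora1 (an adenosine receptor that restrains lipolysis) at -1.23 ± 0.20, Pde3b (the phosphodiesterase through which insulin restrains it) at -1.06 ± 0.19, Insr (the insulin receptor) at -0.998 ± 0.187 and Mgll (the lipase of monoglycerides) at -0.74 ± 0.22. Mgll lost its call without KPC replicate 1, 2 or 4 or KPC-OG replicate 2 or 4 (largest adjusted p 0.0726). With library sizes alone Gpam, Vldlr, Adora1, Pde3b, Insr and Mgll turned above 0, and with TPM all but Vldlr did.

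Of 9 tested adipokines and adipokine receptors other than the 10 genes, 6 were called higher and 1 lower, with a median of 1.55. Retnla, the relative of resistin that macrophages secrete, rose by 1.64 ± 0.17 (edgeR adjusted p = 4.65e-04), from 21.4 to 25.5 TMM-scaled CPM in KPC to 55.0 to 94.7 in KPC-OG. Rarres2 (chemerin) rose by 1.65 ± 0.24, Rbp4 (the retinol carrier) by 1.62 ± 0.27, Nrg4 (a growth factor of brown fat) by 1.60 ± 0.33 and Lepr (the leptin receptor) by 1.55 ± 0.37. Lepr lost its call with limma-voom (adjusted p = 0.0646). Adipor1, an adiponectin receptor, fell by 0.68 ± 0.17 (edgeR adjusted p = 0.0111) and turned above 0 with library sizes alone and with TPM. The other members of the resistin family, Retnlb and Retnlg, were under the filter, with group means of at most 1.23 TMM-scaled CPM.

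Of 13 tested droplet genes and relatives of the 10 genes, 5 were called higher and 3 lower, with a median of 0.43. Plin2, the perilipin of cells other than fat cells, rose by 1.38 ± 0.19 (edgeR adjusted p = 0.00108), from 9.29 to 15.6 TMM-scaled CPM in KPC to 27.6 to 38.6 in KPC-OG. Plin3, at -0.11 ± 0.13, and Plin5, at 0.43 ± 0.78, were not called. Cidea, the relative of Cidec found in brown fat and in lipid-secreting epithelium, had 1, 0, 0 and 1 reads in KPC and 105, 99, 14 and 106 in KPC-OG. From these reads the ratio at equal TMM scale was 27.3 (95% exact counting interval 7.49 to 226), with an edgeR adjusted p of 0.00198. KPC-OG 3, the highest for Cidec, was the lowest of its group for Cidea. Fabp5, a carrier of the same family as Fabp4, rose by 0.85 ± 0.18 (edgeR adjusted p = 0.00517). Hilpda, an inhibitor of Pnpla2's enzyme, rose by 1.12 ± 0.28 (edgeR adjusted p = 0.0117). Fabp1, the carrier of liver and gut, had 2 reads in KPC and 506 in KPC-OG, of which 336 and 132 were in KPC-OG 2 and 3. Its ratio was 42.6 (95% exact counting interval 11.7 to 353), and leaving out any single replicate of KPC, replicate 2 or 3 of KPC-OG or both of these, limma-voom and no filter each ended its call (largest adjusted p 0.376). Of the patatin-like relatives of Pnpla2, Pnpla8 was called lower at -0.54 ± 0.14 and turned above 0 with library sizes alone and with TPM, and Pnpla3, Pnpla6 and Pnpla7 were not called, at 0.60, 0.34 and -0.04.

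Markers of the cells that could carry such RNA were counted too. Of 9 tested white fat markers other than the 10 genes, 1 was called higher, Pparg, and 0 lower, with a median of 0.82. Adrb3, Aqp7 and Pparg in that list also stand in the other lists. Its 12 genes summed to 29.0, 109, 22.02 and 40.5 TMM-scaled CPM in KPC 1 to 4, and to 23.2, 27.0, 218 and 50.7 in KPC-OG 1 to 4, highest in KPC 2 and KPC-OG 3 as for the 10 genes. Most of these 2 sums was Car3, at 70.8 in KPC 2 and 149 in KPC-OG 3. Not every gene of the list followed, and Pparg was highest in KPC 3 and KPC-OG 2. Of 4 tested brown fat genes Cidea was called higher and Ppargc1a lower, the latter at -0.98 ± 0.34 (edgeR adjusted p = 0.0475). Ppargc1a lost that call with sex as a covariate, with no filter, without both KPC-OG 2 and 3, and without KPC replicate 1, 2 or 3 or KPC-OG replicate 1, 2 or 4 (largest adjusted p 0.126) and turned above 0 with library sizes alone and with TPM. Ucp1, the defining gene of brown fat, was at 0 in 6 libraries and at most 0.0595 TMM-scaled CPM in KPC-OG 2 and 4.

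Of 9 tested genes listed for adipose stromal and precursor cells, 7 were called higher and 0 lower, with a median of 0.90. The name of the list does not show that their RNA came from fat, and which cells carried it was not tested. The smallest adjusted p-values were those of Ly6a (2.01 ± 0.24), Dpt (1.32 ± 0.20), Dcn (1.52 ± 0.28), Pi16 (1.66 ± 0.30) and Cd34 (0.90 ± 0.27). Cd34 lost its call with limma-voom and without KPC replicate 1, 3 or 4 or KPC-OG replicate 1, 2 or 4 (largest adjusted p 0.0813). The list summed to 235 to 269 TMM-scaled CPM in KPC and to 705, 621, 334 and 807 in KPC-OG 1 to 4, so that KPC-OG 3, the highest for the 10 genes, was the lowest of its group. Macrophage genes, 8 of 9 higher and led by C1qb, C1qa, Cd68, Adgre1 and Lyz2, summed to 221 to 411 in KPC and 697 to 995 in KPC-OG, and KPC-OG 3 and 4 were both at the top. Endothelial genes, 2 of 9 higher (Cldn5 and Egfl7), summed to 78.3 to 105 and 77.7 to 113. In the mesothelial list 3 of 6 genes were called higher (Krt19, Wt1 and Msln) and 0 lower. Krt19 was the most abundant of that list, with means of 31.0 TMM-scaled CPM in KPC and 171 in KPC-OG. Which cells carried the genes of that list was not tested. Lymphocyte genes were called higher in 0 of 6, islet genes in 0 of 6 and muscle genes in 0 of 1, with 0 lower in each. Among acinar genes 7 of 8 were called lower, led by Rbpjl, Bhlha15, Cpa1, Cel and Ctrb1. With library sizes alone Rbpjl, Ctrb1 and Prss2 of these 7 turned above 0, and with TPM these 3 and Cel lost their calls (largest adjusted p 0.915, Prss2). Ctrb1 also lost its call without KPC replicate 1 or KPC-OG replicate 2, and library sizes alone ended those of Cel and Bhlha15 (largest adjusted p 0.143 and 0.0889 over the settings that ended each). Cela1 lost its call with DESeq2 and without KPC replicate 1, 3 or 4 or KPC-OG replicate 1, 2 or 4 (largest adjusted p 0.0790), and Prss2 without any 1 library except KPC-OG 3. Egfl7 lost its call without both KPC-OG 2 and 3 (adjusted p = 0.0823), Wt1 with limma-voom (adjusted p = 0.0999), and Msln without any 1 library except KPC 3 (largest adjusted p 0.110). Lymphocyte genes summed to 51.8 and 57.7 in KPC 2 and 4 and to 2.29 and 2.12 in KPC 1 and 3, and to 3.62, 60.8, 38.5 and 16.5 in KPC-OG 1 to 4. The part of macrophages, endothelium and lymphocytes in the levels of the 10 genes was not tested.

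**Figure D5:**
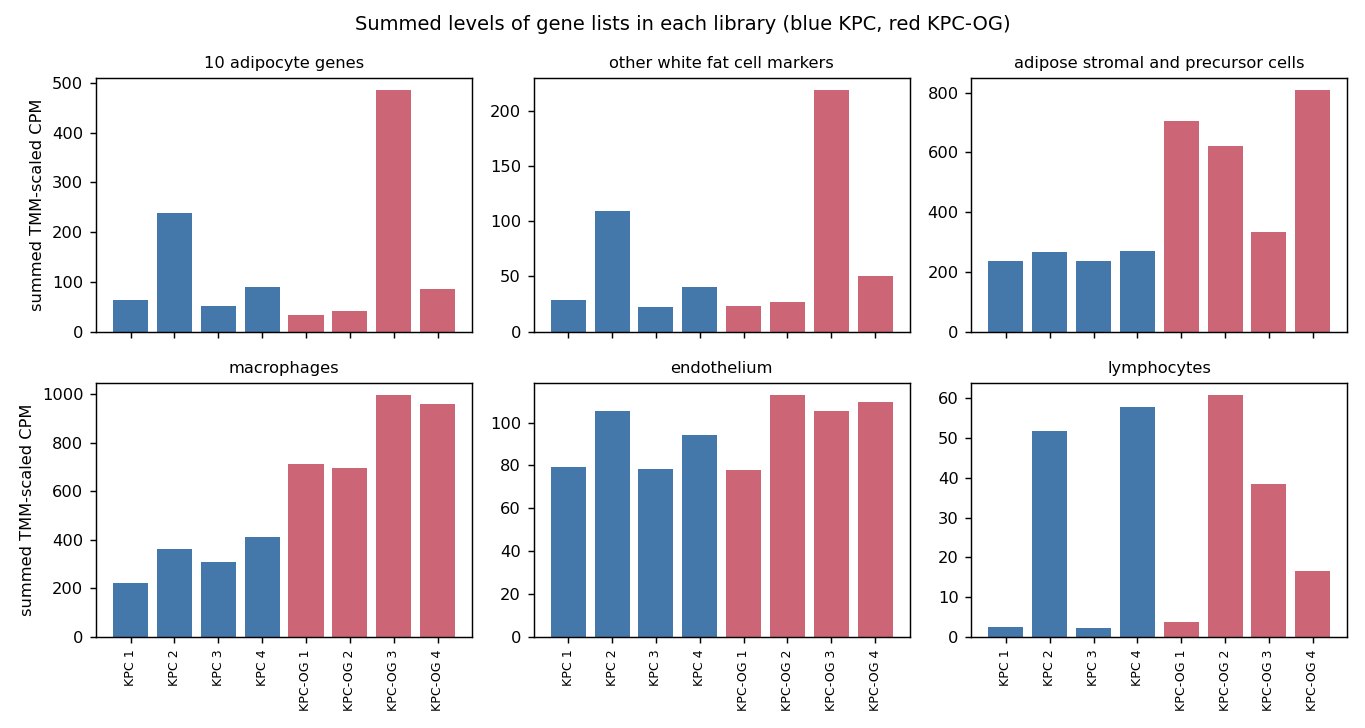
Bars give the summed TMM-scaled CPM (y axis, from 0, a scale of its own for each panel) of the 10 adipocyte genes and of 5 marker lists in the 8 libraries (x axis), blue for KPC and red for KPC-OG. The other white fat markers peak at 218 in KPC-OG 3 as the 10 genes do at 484, while stromal and precursor genes are lowest there among KPC-OG libraries, at 334.

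The sex of the mice is not in the labels used here, and Xist has no row in the gene table. Y-linked Ddx3y put KPC 3, KPC 4, KPC-OG 1 and KPC-OG 3 in one class, with 179 to 1011 reads, and the other 4 libraries at 0 to 6. Y-linked Eif2s3y, with 72 to 577 reads against 0 to 19, and Uty, with 84 to 596 against 0 to 28, gave the same classes. Reads of Y-linked Kdm5d overlapped when both genotypes were pooled, at 156 to 791 against 47 to 481. Within a genotype they did not, at 164 and 156 against 47 and 106 in KPC. In KPC-OG they were 791 and 648 against 481 and 407. The highest library of each genotype for the 10 genes thus differed by Ddx3y, KPC 2 holding 0 of its reads and KPC-OG 3 holding 459. With sex as a covariate 0 of the 9 genes were called, and Pnpla2 stood at -0.02.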

How the data were processed

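Transcripts were quantified by the authors in Sailfish 0.6.3 (bias corrected, 1000 iterations, k-mer length 20) on an index named for Ensembl release 76, per the file headers. The deposited values used here are estimated counts of reads per transcript and TPM, both bias corrected by the authors, and the deposited transcript length serves only to name transcripts. STAR 2.0.4b, bcl2fastq, limma and edgeR are listed, without roles, per the submitters' processing notes. Estimated counts need not be whole, and reads of near-identical or overlapping genes are shared by estimation, since strand is not stated.

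Of 86127 transcripts 83827 matched a gene of GENCODE M21 (GRCm38), and the 2300 others, 1.45% to 4.23% of reads, were left out. Estimated counts were summed over each of 29621 genes and rounded. Tests used the robust quasi-likelihood fit of edgeR 4.0.16 (R 4.3.3) after TMM scaling, filterByExpr by group and Benjamini-Hochberg adjustment over 14267 genes, threshold 0.05. Standard errors are the log2 fold change over the root of F. TMM-scaled CPM are counts over the effective library size. The same replicate numbers in both groups give no shared mouse, litter or batch, so no block entered the main test.

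The genes and the 16 lists were chosen with earlier results of these data known. Named are all 10 genes, in each list all called genes up to 5 or the 5 with the smallest adjusted p, Pparg, Cebpa, Plin2 and close relatives of the 10, and the 8 most alike genes. Lars2, Ucp1, Pnlip, Cela1 and Prss2 fall outside this rule and were chosen after their values were seen. Adrb3 and Aqp7, named as shared between lists, and the genes named for sex fall outside it too. Alternatives were other scalings (RLE, library sizes, TMM without Lars2), no filter, DESeq2 1.42.0, limma-voom (limma 3.58.1), limma on log2(TPM + 1) and log2(TPM + 0.1), the replicate block, sex, and libraries left out. The fit was tested on data simulated for 14267 genes of KPC-OG against KPC, where edgeR recovered 51 of 100 genes planted with a 2-fold change and 92 of 100 with a 4-fold change, with 6 false among 149 calls. The planted genes were drawn at random from those above a floor of expected reads, with the spread of genes at large. The 9 tested adipocyte genes lay at the 94.7th percentile of spread or above in KPC-OG, with standard errors up to 1.43. These shares therefore do not give the power for them.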

Additional observations from a re-analysis of the deposited data

Results flagged for a closer look

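In the 4 KPC-OG libraries, KPC-OG 3 stood apart from the others by Dixon's test at its 95% critical value for 4 samples, for 8 of the genes. In TMM-scaled CPM its values were 29.8 for Adipoq, 16.0 for Plin1, 59.5 for Plin4, 27.7 for Cidec, 116 for Fabp4, 169 for Cfd, 14.6 for Retn and 22.1 for Lipe. The sum of the 10 genes, 484 TMM-scaled CPM in KPC-OG 3, stood apart in the same way. The gap was 0.832 of the whole range for Plin1 and 0.834 for Adipoq, close to the limit, and 0.939 for Plin4. Dixon's test was run in TMM-scaled CPM only, where the factor of KPC-OG 3 (1.14, against 1.83 to 2.28) raises its levels within the group. By share of reads the sum was 552 ppm in KPC-OG 3 and 193 ppm in KPC-OG 4. In TMM-scaled CPM the same libraries held 484 and 85.0, a wider step. By share of reads the gap over the range falls below the limit for the sum, Adipoq, Plin1, Fabp4, Cfd, Retn and Lipe. It stays above the limit for Plin4, and only just for Cidec. Lipe held 25.2 ppm in KPC-OG 3, 14.0 in KPC-OG 4 and 6.38 in KPC-OG 1, its lowest. Plin4 held 67.8 ppm in KPC-OG 3, 14.0 in KPC-OG 4 and 6.02 in KPC-OG 2, its lowest. In KPC, Lep stood apart in KPC 2 at 1.31 TMM-scaled CPM, where the other 3 libraries held no read. Of 22 groups tested 10 stood apart, Lep in KPC 2 among them. Chance alone marks about 1 in 20 groups if the values are normally distributed, which was not tested here. The genes share their libraries, so these are not separate events.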

How the results depend on the processing

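No adipocyte gene was called, higher or lower, with RLE size factors, TMM without Lars2, no filter, DESeq2, limma-voom, the replicate block, sex, both KPC-OG 2 and 3 left out, or any 1 library left out. DESeq2 gave no adjusted p for Plin4, Cidec and Fabp4. With library sizes only, 13078 genes were called higher and 99 lower, 3 of the 9 genes among the higher. With log2(TPM + 1) these were 12856, 121 and 2, and with log2(TPM + 0.1) 12817, 120 and 2. Leaving out 1 library gave 1689 (without KPC-OG 4) to 2880 (without KPC-OG 3) genes higher and 1705 (without KPC-OG 2) to 2548 (without KPC-OG 3) lower.

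The sign of the difference was not stable, and the cause was not tested. Log2 fold changes below 0 came with limma-voom for Adipoq (-0.25), Plin1 (-1.02), Plin4 (-0.60), Cidec (-0.49), Fabp4 (-0.078), Cfd (-0.069), Retn (-0.71), Lipe (-0.30) and Pnpla2 (-0.13). With KPC-OG 2 and 3 left out they were -0.98, -0.78, -1.19, -1.20, -0.92, -1.20, -1.12, -0.74 and -0.30 in the same order. Pnpla2 was at -0.0043 with RLE and -0.020 with sex. Over the fits leaving out 1 library the values ran from -1.28 to 1.73 for Adipoq, -1.22 to 1.56 for Plin1, -1.44 to 1.15 for Plin4, -1.43 to 2.36 for Cidec, -0.94 to 0.95 for Fabp4, -1.53 to 1.998 for Cfd, -1.24 to 1.62 for Retn, -0.71 to 0.44 for Lipe and -0.40 to 0.17 for Pnpla2. The lowest was without KPC-OG 3 for all 9, and the highest without KPC 2 for all but Pnpla2 (without KPC-OG 2). Lipe was also below 0 without KPC 1 (-0.04), and Pnpla2 without KPC 3 (-0.08) and KPC 4 (-0.06).

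With the replicate block the 9 values were all below 0, Adipoq -0.41, Plin1 -0.48, Plin4 -0.37, Cidec -0.26, Fabp4 -0.22, Cfd -0.57, Retn -0.29, Lipe -0.16 and Pnpla2 -0.12, and 2477 genes were called higher and 2418 lower. Deviations of same-numbered libraries correlated at 0.274, 0.275, 0.038 and 0.036 for numbers 1 to 4, and 5 of 8 libraries correlated best with their own number. With some pairs under 0.1 and no shared origin in the labels, the numbers were not taken to pair the libraries, which does not show that they are unpaired. Without the filter Lep was tested, at 1.30 (edgeR adjusted p = 0.670). Depth limits the low genes most in KPC, where 1 read is worth 0.169 to 0.265 TMM-scaled CPM, against 0.0259 to 0.0655 in KPC-OG.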
